A study of Rattus norvegicus with 12 samples.

Results

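The regions described here are 618 stretches of the promoter array at which kidney DNA of male rats on a postnatal high-protein diet gave lower methylation values than kidney DNA of every other diet group. Neighboring autosomal probes were joined into regions wherever the starts of adjacent probes lay no more than 1000 bp apart, and the 15396 regions with at least 3 probes were kept. The value of a region on an array was the mean of its probes in the log2 table that the authors deposited. A region was selected when all 3 mLP-HP arrays lay below all 9 arrays of the other groups, which held for 4.01% of the regions. The regions were thus selected on their mLP-HP values, set against those of the other 9 arrays, and every difference between mLP-HP and the other groups below is a description without a test.

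Kidneys were taken at 6 weeks of age from male SHRSP offspring, with 3 arrays in each of 4 groups. SHRSP, the stroke-prone line of the spontaneously hypertensive rat, is inbred and develops severe hypertension. The CN, LP and HP diets held 20%, 9% and 40% casein. The mCN-CN group (CN-CN in the labels) came from dams on the CN diet in pregnancy and ate the CN diet, whereas 3 groups came from dams on the LP diet in pregnancy and differed in the diet after separation from the dams, namely mLP-CN (LP-CN), mLP-LP (LP-LP) and mLP-HP (LP-HP). All dams and pups were on the CN diet between delivery and that separation. No array came from mCN offspring on the HP diet, so the maternal LP diet was shared by every mLP-HP array. The labels name neither litters nor dams, and the spread between replicates may be partly technical. The tissue is whole kidney, and a change in methylation within cells and a change in the mix of cells cannot be told apart. The arrays carry no expression data with which to check the tissue label.

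Methylation of cytosine, mostly where guanine follows (a CpG site), is a stable mark on DNA. Dense methylation of a promoter goes with silencing of its gene, while many promoters rich in CpG sites carry little methylation. In methylated DNA immunoprecipitation (MeDIP), an antibody against methylated cytosine pulls down methylated fragments. These were labeled with Cy5 and hybridized beside input DNA in Cy3, so that a higher log2 ratio of Cy5 over Cy3 stands for more methylated DNA around a probe. The pull-down also depends on how many CpG sites a fragment holds, so levels were not set against each other between regions as amounts of methylation. The files give rn4 positions without gene names or probe sequences, and no table of that build was at hand, so regions are named by position.

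The arrays were read in 5 scans on 3 days, and the scans divided the groups unevenly. The mLP-HP replicate 7 formed a scan of its own. The mLP-HP replicates 8 and 9 shared a scan with a single array of another group, mLP-LP replicate 10. All mCN-CN and mLP-CN arrays were scanned on the same day. The mCN-CN replicates 1 and 2 formed a scan of their own, and mCN-CN replicate 3 shared a scan with the 3 mLP-CN arrays. The mLP-LP replicates 11 and 12 shared a scan on another day. The share of probes well above background was between 86.2% and 92.3% in Cy3 and between 69.9% and 76.1% in Cy5.

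Over the 618 regions, the median value was −0.35, −0.34 and −0.33 on the mLP-HP replicates 7, 8 and 9. The medians were −0.07, −0.05 and −0.06 on the mCN-CN replicates 1 to 3 and −0.05, −0.06 and −0.07 on the mLP-CN replicates 4 to 6. The mLP-LP group was divided, with −0.23 on replicate 10 and −0.05 and −0.06 on replicates 11 and 12. Replicate 10 thus lay between the mLP-HP arrays and the other 8 arrays, among which the rest of its own group lay. The authors' median centering holds the medians over all regions near 0, between −0.05 and 0.01 on the 12 arrays.

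**Figure D1:**
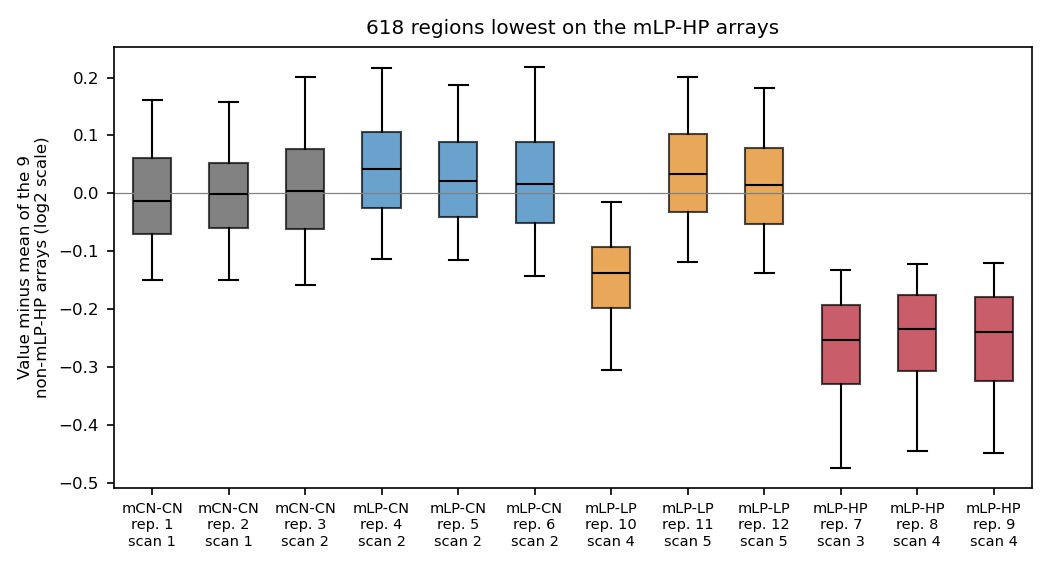
Value of each of the 618 regions on each array, minus the region's mean over the 9 arrays of mCN-CN, mLP-CN and mLP-LP (log2 scale). Boxes span the quartiles with the median as a line, and whiskers reach the 5th and 95th percentiles of the regions. The 3 mLP-HP boxes lie below 0 because the regions were chosen so, and mLP-LP replicate 10, which shared scan 4 with mLP-HP replicates 8 and 9, lies between them and the other 8 arrays.

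The mean of the mLP-HP arrays lay below the mean of the other 9 by a median of −0.25 on the log2 scale, between −0.84 and −0.08. The quartiles of the difference were −0.31 and −0.20. The difference exceeded 0.5 in size in 13 regions. The gap between the highest mLP-HP array and the lowest of the other 9 had a median of 0.0344 and was larger than the pooled standard deviation within groups in 86 regions. Most of the selected regions were therefore separated from the other arrays by less than the usual spread between replicates. The mirror image of the rule, with all mLP-HP arrays above the other 9, was met by 807 regions (5.24%), more than the number of selected regions. Replicate 10 took the same position there. Its median over the 807 was 0.14, beside −0.06 and −0.03 on replicates 11 and 12 and 0.23 to 0.24 on the mLP-HP arrays. The median share of the mLP-HP difference that replicate 10 showed was 61.5% in the 618 regions and 64.5% in the 807. In both lists the rule itself keeps replicate 10 short of the mLP-HP arrays, so an intermediate position is partly fixed in advance. Such a position was seen in both lists and is not particular to the selected regions.

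In 372 of the 618 regions (60.2%) mLP-LP replicate 10 was the lowest of the 9 other arrays, whereas each of the other 8 was the lowest in 17 to 45. Replicate 10 lay nearer to the mLP-HP mean than to the mean of the other 8 arrays in 442 regions and at or above the mean of the other 8 in 20. Its median distance below the other 8 was −0.16, against −0.26 for the mLP-HP arrays. Within their shared scan, the mLP-HP replicates 8 and 9 lay below replicate 10 by a median of −0.10, between −0.41 and −0.0032, a sign that the rule itself fixed. Leaving replicate 10 out of the rule raised the number of regions from 618 to 1550 (10.1% of all). On those 1550 regions replicate 10 lay within the range of the mLP-HP arrays in 676, below all of them in 256 and above all of them in the 618. Leaving out any other array outside mLP-HP gave 644 to 695 regions. All mLP-HP arrays were scanned on the same day, and replicate 10 was the only other array of that day. Apart from that single array, diet and scan day cannot be told apart in the mLP-HP differences. The part of the scan in these values was not tested.

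**Figure D2:**
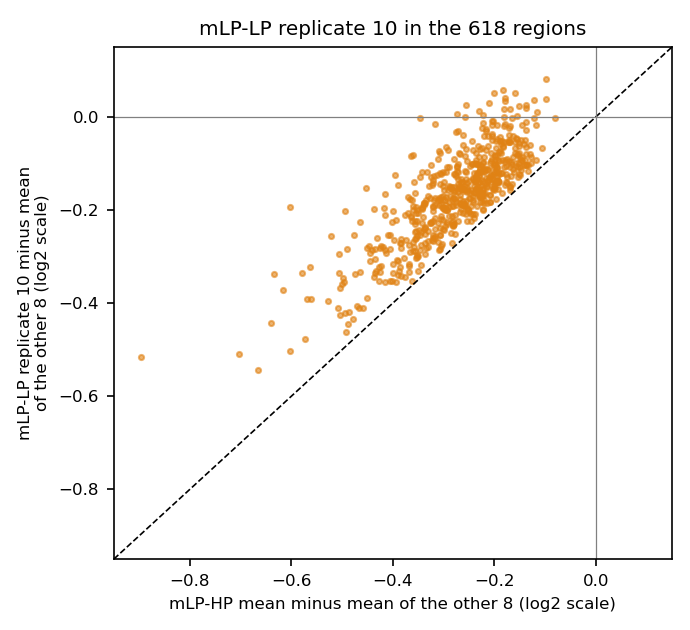
Each point is one of the 618 regions, with the mLP-HP mean minus the mean of the 8 arrays other than mLP-LP replicate 10 on the horizontal axis and replicate 10 minus the same mean on the vertical axis (both log2 scale). The dashed line marks equal values, and the points lie above it because the regions were chosen so. They lie mostly below 0, with 20 of the 618 at or above 0 on the vertical axis.

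The named regions are the 8 with at least 5 probes and the widest gap. The widest was on chromosome 6, 99870030 to 99871481, with 8 probes. Its values were −0.59, −0.47 and −0.59 in mCN-CN, −0.29, −0.30 and −0.08 in mLP-CN, −0.55, −0.22 and −0.32 in mLP-LP, and −0.97, −1.01 and −0.91 in mLP-HP. Here replicate 10, the first of the mLP-LP values, lay within the mCN-CN values, and the lowest array outside mLP-HP was an mCN-CN array. All 8 probes were lower on mLP-HP on average in the deposited values, and 6 of the 8 on Feature Extraction's processed signals. The MeDIP channel carried the difference, with centered Cy5 lower by −0.99 and centered Cy3 higher by 0.06, although the signal was weak, as 12.5% of the probes were well above background in Cy5 on all arrays.

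The region on chromosome 16, 26494024 to 26495173, was above 0 on every array. Its values were 0.98, 1.11 and 1.01 in mCN-CN, 1.06, 0.87 and 0.86 in mLP-CN, 0.75, 0.93 and 0.82 in mLP-LP, and 0.41, 0.48 and 0.49 in mLP-HP. All 6 probes were well above background in Cy5 on all arrays. Both channels were lower on mLP-HP, Cy5 by −0.41 and Cy3 by −0.24. On Feature Extraction's processed signals it was no longer lowest on all mLP-HP arrays, and its difference was −0.26 in place of −0.47.

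On chromosome 8, 16917915 to 16919690, values were −0.58, −0.65 and −0.54 in mCN-CN, −0.33, −0.62 and −0.46 in mLP-CN, −0.69, −0.47 and −0.57 in mLP-LP, and −0.95, −0.91 and −0.96 in mLP-HP. In the deposited values, which are smoothed, the 5 probes with all mLP-HP arrays lowest lay side by side, from −381 to 323 bp of the center. The largest probe difference was −0.75, and the 3 probes at each end differed by −0.28 to −0.13. On the processed signals, which are not smoothed, the differences were −2.16 to −0.74 at the 5 middle probes. At the 3 probes of each end they were more scattered, from −1.62 to 0.70, with −1.62 and −1.53 at the outermost probes.

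A region on chromosome 1, 163987638 to 163989335, had the largest mean difference of the 8, −0.60. Its values were −0.57, −0.34 and −0.20 in mCN-CN, −0.27, −0.32 and −0.35 in mLP-CN, −0.65, −0.12 and −0.29 in mLP-LP, and −0.86, −0.92 and −1.05 in mLP-HP. With each channel centered separately, Cy3 was higher by 0.50 and Cy5 lower by −0.41, a similar size in input and precipitated DNA. The 9 arrays outside mLP-HP covered a range of 0.523 in this region, from mLP-LP replicate 10 to mLP-LP replicate 11.

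**Figure D3:**
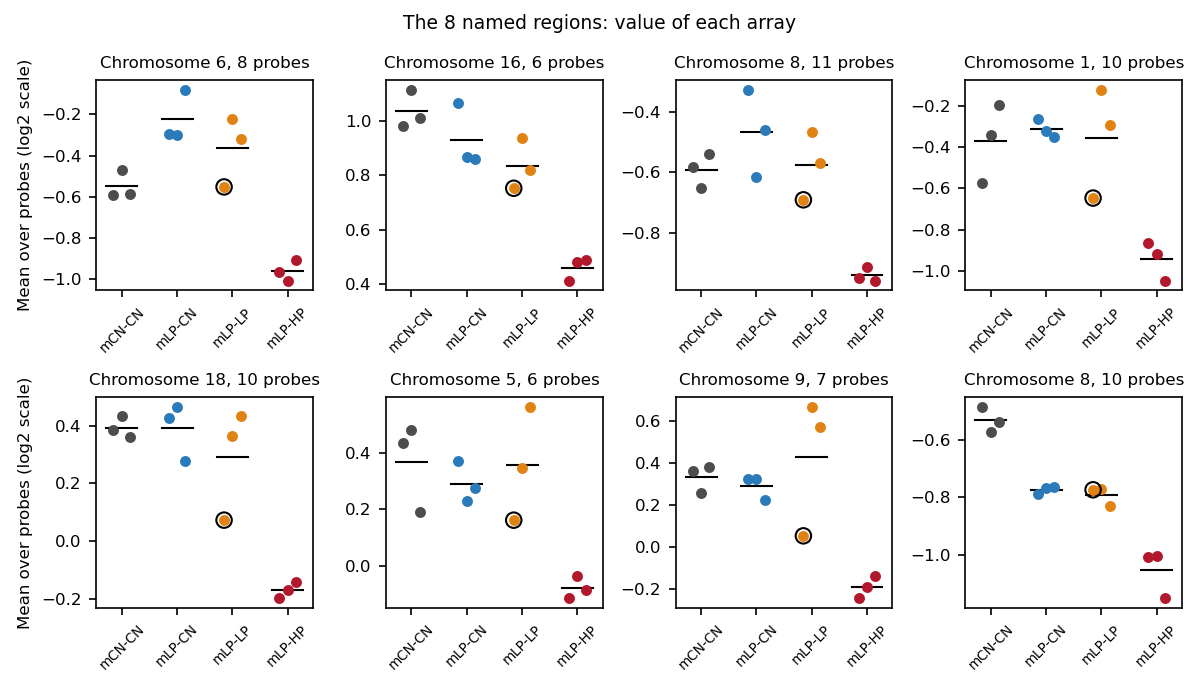
Region values (mean over probes, log2 scale) of all 12 arrays for the 8 named regions, each panel titled with its chromosome and number of probes. Points are arrays, horizontal lines are means of 3 arrays, and the ringed point is mLP-LP replicate 10, which is the lowest of the 9 other arrays in 6 of the 8 panels.

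In 3 further named regions the level changed from above 0 in the other groups to below 0 on mLP-HP. On chromosome 18, 14718358 to 14719962, values were 0.39, 0.43 and 0.36 in mCN-CN, 0.43, 0.47 and 0.28 in mLP-CN, 0.07, 0.37 and 0.43 in mLP-LP, and −0.20, −0.17 and −0.14 in mLP-HP. On chromosome 5, 8772910 to 8773755, a short region of 846 bp and 6 probes, they were 0.43, 0.48 and 0.19 in mCN-CN, 0.37, 0.23 and 0.27 in mLP-CN, 0.16, 0.35 and 0.56 in mLP-LP, and −0.11, −0.03 and −0.09 in mLP-HP. In both, replicate 10 stood lowest in its group.

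On chromosome 9, 10262747 to 10264507, values were 0.36, 0.26 and 0.38 in mCN-CN, 0.32, 0.33 and 0.23 in mLP-CN, 0.05, 0.67 and 0.57 in mLP-LP, and −0.24, −0.19 and −0.14 in mLP-HP. The mLP-LP values enclosed those of mCN-CN and mLP-CN, with replicate 10 below them and replicates 11 and 12 above. Its difference came from 4 of the 7 probes, with −1.12 to −0.73, while the other 3 lay between −0.18 and 0.10. When the median of the probes replaced their mean, it no longer met the rule. Over the 618 regions, such a crossing of 0 between the mean of the other 9 and the mean of mLP-HP was found in 118.

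The last of the 8, on chromosome 8, 40592144 to 40593845, showed steps between the groups. Its values were −0.49, −0.57 and −0.54 in mCN-CN, −0.79, −0.77 and −0.76 in mLP-CN, −0.77, −0.77 and −0.83 in mLP-LP, and −1.01, −1.004 and −1.15 in mLP-HP. All offspring of LP dams lay below the mCN-CN arrays, replicate 10 included. The difference between mLP-CN and mCN-CN was −0.24 ± 0.07 (SE) and did not pass the limma threshold after Benjamini-Hochberg adjustment (adjusted p = 0.104). That between mLP-LP and mCN-CN was −0.26 ± 0.07 (SE, limma adjusted p = 0.184).

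**Figure D4:**
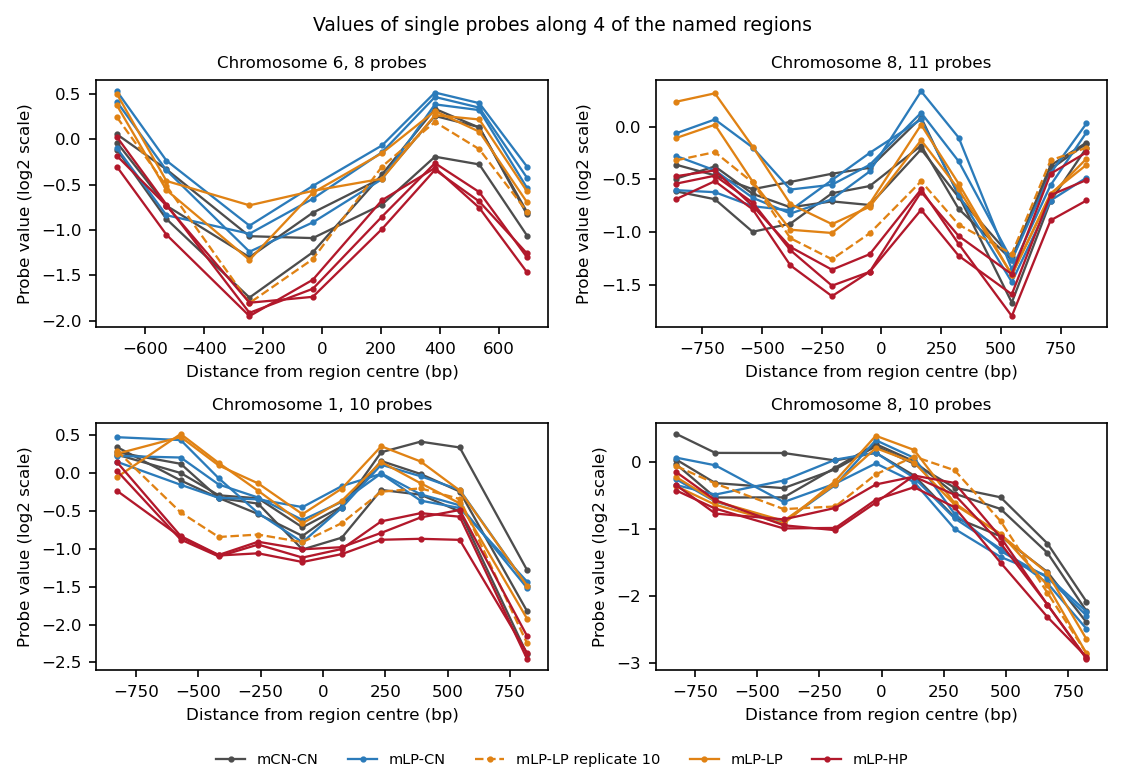
Probe values (log2 scale) against distance from the region's center (bp) for 4 of the named regions, one line per array and colored by group, with mLP-LP replicate 10 dashed. On chromosome 8 (11 probes) the mLP-HP lines lie lowest at the 5 probes between −381 and 323 bp and overlap with other arrays at both ends. On chromosome 6 all 8 probes are lower on mLP-HP on average in these deposited values, which are smoothed.

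A region of only 3 probes on chromosome 1, 71866694 to 71867069, had the widest gap of all, and its mean difference of −0.84 was the largest of the 618. In 12 regions replicate 10 lay within the other 8 arrays and the rule also held under each of the 7 other processings that could be applied to a region. One of them, picked after its values were seen, was on chromosome 10, 57873421 to 57875269, with 12 probes. It gave means of 0.29 ± 0.05 in mCN-CN, 0.29 ± 0.06 in mLP-CN and 0.29 ± 0.05 in mLP-LP, against 0.03 ± 0.04 in mLP-HP (SD, n = 3 each). In this region centered Cy5 was higher on mLP-HP by 0.01 and centered Cy3 by 0.15, so that the lower ratio lay in the input channel.

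At the edge of the rule, the regions with the narrowest gaps were on chromosome 2 (143960738 to 143962385), chromosome 16 (49404505 to 49406212) and chromosome 1 (143855925 to 143857696). Their gaps were 0.000114, 0.000136 and 0.000156, and their mean differences −0.27, −0.18 and −0.22. Just outside it were regions on chromosome 7 (49688461 to 49690159), chromosome 7 (117384737 to 117386518) and chromosome 3 (75477677 to 75479048). These had mean differences of −0.18, −0.12 and −0.33 and gaps of −1.33e-05, −5.66e-05 and −6.94e-05. Mean differences on the 2 sides of the edge overlapped.

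The question of whether the selected regions also differed among the groups that the rule did not compare was tested with limma on the 9 arrays without mLP-HP. The contrast of mLP-CN with mCN-CN compares the maternal diets, and that of mLP-LP with mLP-CN the postnatal diets. No scan or day held mLP-LP arrays together with mLP-CN or mCN-CN arrays, so in both mLP-LP contrasts diet and scan cannot be told apart. Only mCN-CN replicate 3 shared a scan with the mLP-CN arrays, so diet and scan are largely confounded in that contrast as well. With scan as a fixed block, it rests on that single mCN-CN array. None of the 618 regions passed an adjusted p of 0.05 in mLP-CN against mCN-CN, in mLP-LP against mLP-CN, or in mLP-LP against mCN-CN. Over all regions, limma called 30 (0.195%), 18 (0.117%) and 7 (0.0455%), so that few calls were made anywhere. At an unadjusted p of 0.05, 88 of the 618 passed in mLP-CN against mCN-CN (14.2%, against 17.6% of all regions). The counts were 92 in mLP-LP against mLP-CN (14.9%, against 15.7%) and 59 in mLP-LP against mCN-CN (9.55%, against 12%). The selected regions thus passed no more often than the array as a whole, while the selection can favor regions with a small spread among the 9 arrays. The contrasts share arrays and are not independent of each other.

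The smallest adjusted p of the 618 regions in limma was 0.0522, for mLP-CN against mCN-CN at chromosome 17, 43618149 to 43619858. Its values were −0.96, −1.01 and −1.04 in mCN-CN, −0.61, −0.70 and −0.56 in mLP-CN, −1.01, −0.77 and −0.90 in mLP-LP, and −1.21, −1.19 and −1.30 in mLP-HP. The mLP-CN arrays were the highest there and did not overlap with any other group. None of its 9 probes was well above background in Cy5 on all arrays, which makes the level of this region uncertain. The smallest adjusted p was 0.104 in mLP-LP against mLP-CN and 0.155 in mLP-LP against mCN-CN.

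Differences among the groups outside mLP-HP went both ways in the selected regions. They ranged from −0.29 to 0.47 for mLP-CN minus mCN-CN, from −0.39 to 0.29 for mLP-LP minus mLP-CN and from −0.34 to 0.27 for mLP-LP minus mCN-CN. Their medians were close to 0. The median difference over the 618 was 0.02 for mLP-CN minus mCN-CN (−0.03 over all regions), −0.06 for mLP-LP minus mLP-CN (0.01 over all), and −0.03 for mLP-LP minus mCN-CN (−0.01 over all). The mLP-CN mean was the highest of the 3 groups in 313 of the 618 regions (50.6%, against 28.3% of all regions), and the mLP-LP mean was the lowest in 310 (50.2%, against 31.5%). Over all regions, the mLP-CN mean was the lowest of the 3 in 42.6%. The rule asked every array of these groups to lie above mLP-HP, which favors regions with a high mLP-CN level. These shares and medians can therefore follow in part from the selection. Without replicate 10 the median of mLP-LP minus mLP-CN moved from −0.06 to −0.01 and that of mLP-LP minus mCN-CN from −0.03 to 0.02. In the deposited values, the lower median of mLP-LP in these regions therefore rested on replicate 10. On scanner values after normexp and quantile normalization, mLP-LP minus mLP-CN had a median of −0.08 with replicate 10 and −0.05 without it.

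The count of 0 depended on the processing. Without mLP-LP replicate 10, limma called 13, 3 and 4 of the 618 regions in the 3 contrasts (2.10%, 0.485% and 0.647%, against 3.55%, 1.01% and 0.792% of all regions). Without mCN-CN replicate 3 it called 12, 0 and 1, against 799 (5.19%), 108 (0.701%) and 14 (0.0909%) of all regions. That array had the most outlier-flagged spots (16509) and was the only mCN-CN array in the scan of the mLP-CN arrays. When limma was run on the scanner signals after normexp background correction and quantile normalization, 88 of the 618 were called in mLP-LP against mLP-CN, 87 of them lower in mLP-LP. Calls in either direction made up 14.2% of the selected regions and 12.9% of all regions, and calls of lower values 14.1% and 4.82%. On the same scanner values without replicate 10 the count was 76 (12.3%, against 14.1% of all regions), of which 63 were lower (10.2%, against 4.98%) and 13 higher. In the deposited values of all regions, mLP-LP replicates 11 and 12 minus mLP-CN also varied with probe length. The median was 0.04 at mean lengths of 45 to under 46 bases and −0.11 at 56 to 60. The selected regions had longer probes than usual, and the part of probe length in these calls was not tested. On processed signals limma called none in the 3 contrasts. At an unadjusted p of 0.05, 9, 54 and 70 of the 618 passed there (1.46%, 8.74% and 11.3%, against 1.58%, 10.5% and 8.69% of all regions). After loess within arrays limma again called none, with 44, 31 and 42 at an unadjusted p of 0.05 (7.12%, 5.02% and 6.80%, against 6.41%, 8.23% and 9.44%).

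With each channel centered separately, the lower ratio on mLP-HP appeared in both channels to differing degrees. The channel differences below therefore do not add up to that of the processed ratio, which had a median of −0.45. Their signs and counts depend on the centering. Centered Cy5, the precipitated DNA, was lower on mLP-HP in 540 of the 618 regions (87.4%, against 44.8% of all), by a median of −0.22. Centered Cy3, the input DNA, was higher in 431 (69.7%, against 50.2% of all), by a median of 0.12. Both held in 356 regions (57.6%, against 16.6% of all), and these shares follow in part from the selection, since a low ratio needs a low Cy5 or a high Cy3. The median Cy5 level over the 618 regions was −0.91, −0.93 and −0.83 on mLP-HP and −0.81 on replicate 10, with the other 8 arrays between −0.70 and −0.44. Replicate 10 was thus next to the mLP-HP arrays in the MeDIP channel. In Cy3 it stood at −0.42, beside −0.39 to −0.32 on the mLP-HP arrays and −0.52 to −0.31 on the other 8. The overlap of the last 2 came from mCN-CN replicate 3 alone (−0.31), whose Cy3 median over all regions was also the highest (0.25). The rest of the 8 lay between −0.52 and −0.45, so replicate 10 stood between them and the mLP-HP arrays in Cy3 too. Input DNA does not carry the antibody step, and the part of the input channel in the selected differences was not tested.

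The selected regions were ordinary in size, with a median of 10 probes over 1664 bp, as over all regions. Only 7 had 3 or 4 probes, and 9 spanned more than 5000 bp, enough to join promoters of adjacent genes. Their mean level over the 9 other arrays was above 0 in 271 (43.9%, against 48.2% of all regions). The level had a median of −0.07, against −0.02 over all regions. Signals were weaker than usual, as a median of 50% of a region's probes were well above background in Cy5 on all arrays, against 66.7% over all regions, and 72.7% against 80% in Cy3.

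The share of selected regions rose with probe length, although the lengths of selected and other regions overlapped widely. Probes were 45 to 60 bases long, and the median of a region's mean length was 50.2 bases in the 618 regions (quartiles 48.1 and 53.3) and 48.3 bases over all (46.7 and 50.7). Of the 2214 regions with a mean length of 45 to under 46 bases, 1.13% were selected, and of the 764 with 56 to 60 bases, 9.95% were. The mirror set ran the other way, from 8.67% to 0.52%. Over all regions of these 2 classes, the median of mLP-HP minus the other 9 was 0.09 at the shortest and −0.08 at the longest probes, and replicate 10 minus the other 8 was 0.09 and −0.02. The same slope from short to long probes was seen on the mCN-CN replicates 1 and 2, with median deviations of 0.05 and 0.06 under 48 bases and −0.03 and −0.06 at 54 bases or more. It was also seen on mLP-LP replicate 12 (0.02 and −0.06). The mLP-CN arrays had the opposite slope. These deviations were taken from the mean of the 8 arrays outside mLP-HP other than replicate 10. Slopes among those 8 arrays are thus relative to each other, and opposite slopes are partly fixed in advance. Deviations were small on mCN-CN replicate 3 (−0.004 and 0.006) and mLP-LP replicate 11 (−0.01 and 0.002). When the mean deviation of each probe length was taken off each array, an alternative chosen after seeing the data, 511 of the 618 regions still had mLP-HP lowest. The part of probe length in the remaining values was not tested.

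**Figure D5:**
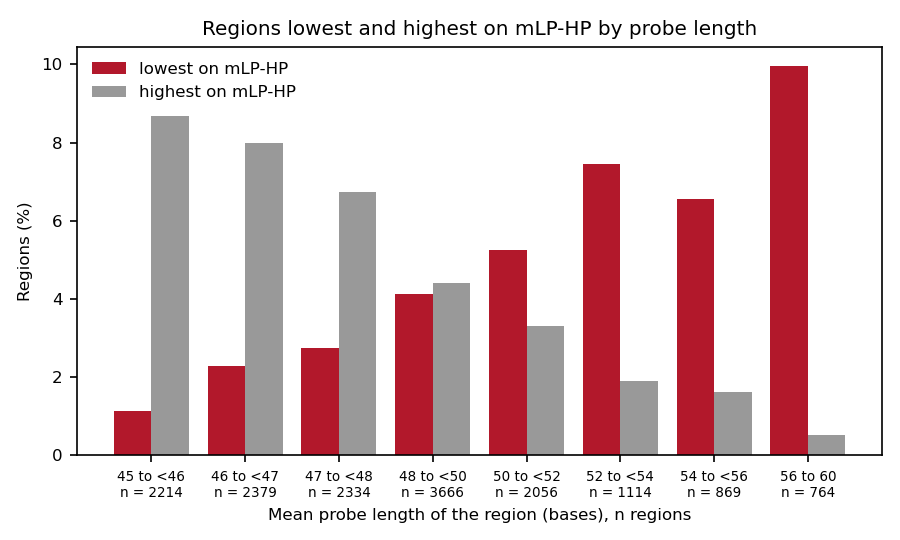
Share of regions (%) with all 3 mLP-HP arrays lowest (red) and highest (gray) of the 12, by the mean probe length of the region (bases), with the number of regions in each class below. The lowest share rises from 1.13% to 9.95%, and the highest share falls from 8.67% to 0.52%.

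The regions were spread over all 20 autosomes, from 2.34% of the regions on chromosome 12 to 6.30% on chromosome 18. A selected region had another selected region as a neighbor in 75 cases (12.1%, against 7.83% of all regions), and 19 lay within 20000 bp of another. Of the 2121 windows of 1000000 bp that held regions, 472 held a selected region and 9 held 4 or more. Those 9 windows held 43 selected regions among 276, and a window with many regions can reach 4 more easily. The highest count was 7 of 45 regions, on chromosome 3 from 69000001 to 70000000. The highest share among the 9 was 4 of 10, on chromosome 17 from 43000001 to 44000000. A pair of stretches, each with at least 3 such windows, was picked out after the counts were seen. On chromosome 3, from 69000001 to 74000000, 22 of 174 regions were selected (12.6%), and on chromosome 8, from 40000001 to 43000000, 13 of 93 (14.0%).

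Both stretches carried long probes, with median lengths of 56.8 and 56.3 bases over all their regions. Elsewhere, 102 of the 1393 regions with a mean length of 54 bases or more were selected (7.32%). Their median length was 55.6 bases, shorter than in both stretches. Of all regions with 56 to 60 bases, those in the stretches included, 9.95% were selected. The selected regions of the chromosome 3 stretch had a median mLP-HP difference of −0.29, between −0.46 and −0.14, and a median level of −0.73 on the other 9 arrays. Those on chromosome 8 had a median of −0.26, between −0.43 and −0.12, at a level of −0.65. Replicate 10 was the lowest of the other 9 arrays in 11 of the 22 and 6 of the 13. The region on chromosome 8 at 40592144 described above is one of the latter stretch, and its nearest selected neighbor was 9948 bp away.

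Within regions the lower values were shared by most probes without being uniform. Of the 6423 probes in the 618 regions, 5313 (82.7%) were lower on mLP-HP on average, against 49.3% of all 164117 probes, and all probes of the region were lower in 160 regions. On the processed signals, which are not smoothed along the chromosome, the share was 68.7%, against 46.7% of all probes, and every probe was lower in 31 regions. In the 438 regions with 9 to 12 probes, the median probe difference was −0.27 in the inner part, −0.23 in the middle part and −0.24 in the outer part. These shares describe the selection from the side of single probes.

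Other treatments of the same arrays kept different portions of the list. The rule still held for 449 of the 618 regions on normexp and quantile normalized scanner signals, 426 on processed signals and 307 after loess within arrays. It held on all 3 kinds of scanner values for 209 and on none of them for 53. The median difference was −0.20, −0.45 and −0.16 on these values. Of the 246 regions in which replicate 10 lay within the other 8 arrays, 70 met the rule on all 3 kinds of scanner values. These scanner values come from the same hybridizations and are no independent measurement.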

How the data were processed

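Kidney MeDIP DNA (Cy5) and input DNA (Cy3) of 12 rats were hybridized to 1 promoter array each. The deposited scanner files hold spot and background intensities, read by the authors with Agilent Feature Extraction 11.0.1.1 on build rn4, and its processed signals. A second deposited file holds log2 values of every probe, which the authors had centered on the median, normalized by quantiles and smoothed linearly, per the study's methods. On each array these values followed the processed log2 ratio (Spearman's rho 0.826 to 0.869), whereas their scale and centering are not stated in the file. The array SDs of 0.753 to 0.800 differed, so the columns are not identical in distribution. Groups were taken from the labels, and all 12 arrays were used.

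The 164271 autosomal probes were joined over start gaps of up to 1000 bp, and 154 in regions of under 3 probes were left out. Probes on chromosome X (7513) and on unplaced sequence (885) were not used. Region means of the log2 table were fitted in limma 3.58.1 (R 4.3.3) on the 9 arrays of mCN-CN, mLP-CN and mLP-LP, with 6 residual degrees of freedom and Benjamini-Hochberg adjustment over 15396 regions. Other steps used Python 3.11.15 with pandas 2.3.3. The rule and the fit were tested on simulated data. Alternatives were processed signals, normexp (offset 50) with quantile or loess normalization (outlier-flagged spots, 170 to 16509 per array, treated as missing), probes above background, region medians, other joining settings, scan blocks, all 12 arrays and leaving out each array. Channel levels are log2 processed signals, each channel centered on its own median on each array. Named regions are the 8 with at least 5 probes and the largest gap, called members with the largest differences in each contrast (none), and 3 on each side of the rule's edge. The members and all comparisons were chosen with earlier results of these data known. With 3 arrays per group, the number of arrays limits the precision. Gene names, sequences and CpG content were not analysed here.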

Additional observations from a re-analysis of the deposited data

How the results depend on the processing

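The number of regions with mLP-HP lowest was 618 and rose to 2141 on processed signals and 1249 after loess. Leaving out single arrays gave 644 to 1550, the highest without mLP-LP replicate 10 and 1067, 976 and 936 without mLP-HP replicates 7, 8 and 9. Of the 618, the rule held for 307 after loess, 350 with probes above background in Cy3 and 241 with region medians, and for all 618 whichever array was left out, since fewer arrays loosen the rule. Their median difference of −0.25 was −0.45 on processed signals and −0.26 to −0.24 with single arrays left out. It stayed negative under each setting tried for it, and so did the differences of the 8 named regions under the settings tried for them.

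The limma counts were not stable. For mLP-CN against mCN-CN, 30 regions became 0 on processed signals, after loess, with probes above background and with probe length adjusted, 119 with normexp and quantile, 47 with region medians, 74 with the table quantile normalized, 101 with scan as a random block, 198 as a fixed block and 377 with all 12 arrays (0 to 799 with arrays left out). Members called were 1 with normexp and quantile, 2 with medians, 2 with the table quantile normalized, 2 and 4 with the random and fixed block, and 6 with all 12 arrays (0 to 13 with arrays left out). For mLP-LP against mLP-CN, 18 regions became 0 on processed signals, after loess and with the random block, 1987 with normexp and quantile, 7 with probes above background, 7 with medians, 3 with probe length adjusted and 135 with all 12 arrays (0 to 156 with arrays left out). Members called were 88, with normexp and quantile, 1 with medians and 7 with all 12 arrays (0 to 3 with arrays left out). For mLP-LP against mCN-CN, 7 regions became 0 on processed signals, with normexp and quantile, after loess, with probes above background, with the table quantile normalized, with probe length adjusted and with the random block, 4 with medians, 11 with at least 5 probes and 46 with all 12 arrays (0 to 122 with arrays left out). Members called were 0 to 4 with arrays left out. With normexp and quantile but without replicate 10, the 3 contrasts called 457, 2177 and 0 regions and 10, 76 and 0 members. The cause was not tested. Without any one of the 3 mLP-CN arrays, or without mCN-CN replicate 1 or 2, no region was called in mLP-CN against mCN-CN. Quantile normalization of the table, the adjustment for probe length and leaving out replicate 10 on normexp values were chosen after seeing the data. Leaving out an array leaves 2 in its group, whose spread is then taken from all groups. No paired analysis was possible because the replicate numbers run from 1 to 12 and no groups share them. Weak Cy5 signal limits the precision of many of these regions.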
